A study of Sus scrofa with 2 samples.

Results

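The CC chemokines CCL4, CCL5, CCL8 and CCL2 and the chemokine receptor CCR7 were followed through single cells of pig skin. These 5 genes were chosen by name, with earlier results of these data known. All 5 were found among the 31908 genes of the count matrices. The study dissociated full-thickness dorsal skin of male farm pigs into single cells and profiled 1 library of freshly isolated cells and 1 library of cells that had been frozen in 90% FBS + 10% DMSO, kept in liquid nitrogen and thawed. Dead cells and aggregates were removed by sorting, and transcripts were counted as unique molecular identifiers (UMIs) with a droplet 3′ kit. The pigs were healthy and young, with no age in numbers in the sources used here, and the labels do not tie the libraries to animals. No test was possible, since each condition was profiled once. Every interval below is an exact 95% interval that covers counting error only, and each difference holds for these 2 libraries.

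Chemokines are small secreted proteins that guide leukocytes along gradients through G protein-coupled receptors. CCL2 and CCL8 act mainly through CCR2 and attract monocytes, whereas CCL4 and CCL5 act on T cells, monocytes and other leukocytes, CCL5 in part through CCR1 and CCR3. CCR7 is the receptor for CCL19 and CCL21, which direct maturing dendritic cells and some T cells from the skin into lymphatic vessels and lymph nodes. Langerhans cells, the dendritic cells of the epidermis that carry the lectin CD207, are known to use this route.

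All 5 genes lie on chromosome 12 of the pig genome (Sscrofa11.1). CCR7 spans chr12:21857286-21869211 on the plus strand. CCL4 (chr12:39479190-39480511, minus strand) and CCL5 (chr12:39652731-39659121, plus strand) are near each other, and CCL8 (chr12:40740468-40741970, minus strand) and CCL2 (chr12:40798109-40800013, minus strand) lie 56138 bases apart in RefSeq. Each RefSeq model has 1 transcript of 3 exons. The 250 bases before the RefSeq start are shown for CCL2, the chemokine found in most cells. They are written 5′ to 3′ on the strand of the gene.
CCL2, chr12:40800014-40800263, minus strand: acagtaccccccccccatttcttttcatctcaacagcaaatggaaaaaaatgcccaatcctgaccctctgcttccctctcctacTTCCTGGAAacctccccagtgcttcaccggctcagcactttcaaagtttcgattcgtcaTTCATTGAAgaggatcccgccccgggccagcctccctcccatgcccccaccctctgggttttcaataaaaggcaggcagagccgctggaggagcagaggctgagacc
Capitals mark the letters TTCNNNGAA (a GAS motif, known from interferon-responsive genes). Among 19556 RefSeq promoter windows of this length, searched on both strands, TTCNNNGAA was found in 6.12%. CCL2 had these letters in 2 places, 166 to 158 and 107 to 99 bases before the start. The window of CCR7 held TGATTCA, a match to TGANTCA (a loose form of the AP-1 motif that allows any central base, in 5.27% of windows). It also held an NF-kB motif (GGG followed after any 5 bases by CC), which 59.2% of all windows held and which is not marked. Such matches describe letters and are not evidence of binding.

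The matrices held 4379 fresh and 4860 cryopreserved barcodes, of which 2775 and 4223 cells passed the study's maxima of 4500 genes, 30000 UMIs and 10% mitochondrial UMIs. These cells carried 32274985 and 36687009 UMIs, with a median of 11017 UMIs per fresh and 7945 per cryopreserved cell. Cells were grouped without the CC chemokine and CC receptor genes, which gave 24 clusters, and 21 of these were named from marker genes in 10 classes. CD163/CD209 myeloid-like cells made up 5.51% of fresh and 6.51% of cryopreserved cells, and T- or NK-like cells 5.23% and 6.01%. Dendritic-like cells, including those like Langerhans cells, made up 3.89% and 4.36%. Fibroblast-like cells made up 40.8% and 35.0%, and smooth muscle-like cells (SMC-like) 8.86% and 8.83%. Some of the markers that named these classes are given here, so their levels describe the classes and do not test them. The myeloid-like cells had 11569 and 14895 CPM (counts of the gene scaled to 1000000 UMIs) of the 3 C1q genes together and 0 UMIs of CD207, and the T- or NK-like cells had 1822 and 2107 CPM of the T cell receptor complex (CD3D, CD3E, CD3G and CD247). The dendritic-like cells had 200.4 and 243 CPM of CD207, but also 974 and 880 CPM of the C1q genes. The libraries shared 6 barcodes.

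Of the 5 genes, 4 were found in few cells, and CCL2 was widespread. CCL8 was detected in 107 of 2775 fresh cells (3.86%, interval 3.17 to 4.64%) and 160 of 4223 cryopreserved cells (3.79%, 3.23 to 4.41%). CCR7 was detected in 6.05% and 6.49% of cells, CCL4 in 6.70% and 7.13%, and CCL5 in 8.65% and 9.57%. CCL2 was detected in 59.6% (57.7 to 61.4%) of fresh and 64.8% (63.4 to 66.3%) of cryopreserved cells. These shares were not corrected for depth, which was lower in the cryopreserved cells.

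**Figure D1:**
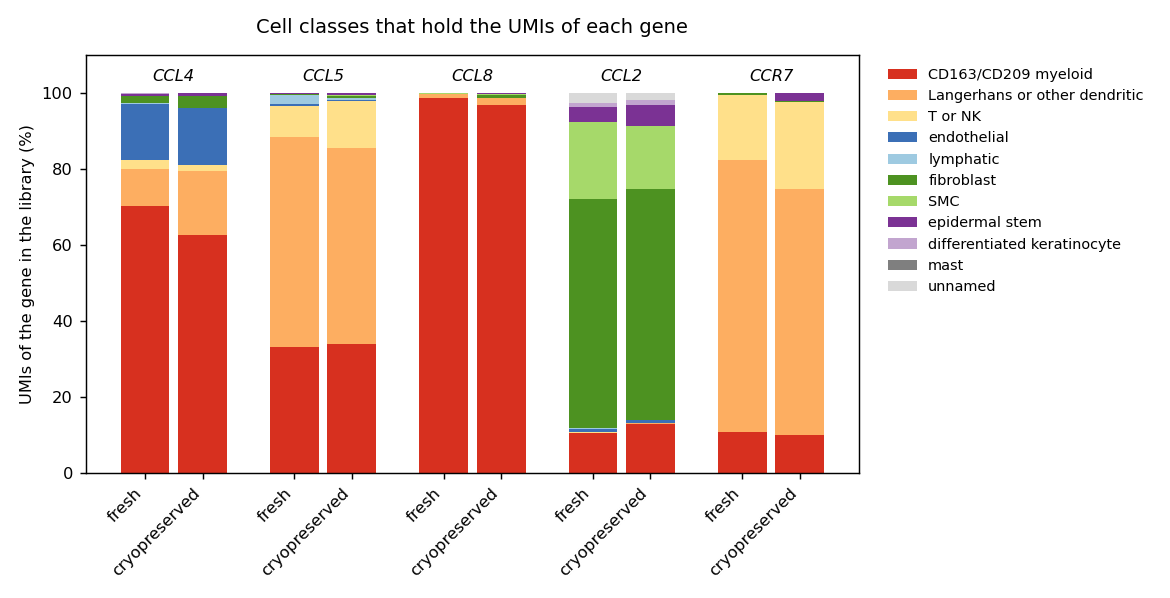
Share of the UMIs of each gene (vertical axis, % of the gene's UMIs in that library) held by each cell class, as stacked bars for the fresh and the cryopreserved library. CCL8 was almost wholly in myeloid-like cells, CCL4 mostly there, CCL5 and CCR7 led by dendritic-like cells, and CCL2 led by fibroblast-like cells.

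In both libraries CCL4 and CCL8 had at least 50% of their UMIs in myeloid-like cells, as had 0.583% (fresh) and 0.942% (cryopreserved) of all genes with at least 200 UMIs. CCL5 and CCR7 had at least 50% in dendritic-like cells, as had 0.604% and 0.495% of genes. CCL2 had at least 50% in fibroblast-like cells, which was common, since 26.3% and 19.5% of genes did, and at a clustering resolution of 1.2 its share was 46.6% and 43.9%. For CCL5 the dendritic-like share was 48.5% and 45.1%, under 50%, when the libraries were merged without integration.

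CCL8, a monocyte-attracting chemokine, was nearly restricted to one myeloid lineage. Myeloid-like cells held 98.7% (98.1 to 99.1%) of its UMIs in the fresh and 96.8% (96 to 97.6%) in the cryopreserved library. Its level there was 1415 CPM (1355 to 1477) and 891 CPM (852 to 931). Cluster 7, the myeloid cluster with CD209, C1QA and CCL14 among its leading genes, held all 2104 fresh UMIs of the class and 1978 of the 1996 cryopreserved ones. Dendritic-like cells had 12.8 and 19.3 CPM. T- or NK-like, endothelial-like and differentiated keratinocyte-like cells had 0 UMIs of CCL8 in both libraries, where the upper limits of the levels were between 2.05 and 3.47 CPM. Compared with all remaining cells, the level was 1556-fold (1074 to 2348) higher in the fresh and 472-fold (369 to 614) higher in the cryopreserved myeloid-like cells. With each cell thinned to 1000 UMIs, CCL8 was seen in 38.9% (31.0 to 47.2%) of 149 fresh and 26.7% (21.6 to 32.4%) of 273 cryopreserved myeloid-like cells, against 0 of 1130 and 2 of 1476 fibroblast-like cells, and the unthinned shares of the myeloid-like cells were 60.8% and 45.1%.

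CCL4, which attracts T cells and monocytes, was led by the same myeloid-like cells but reached endothelial-like and dendritic-like cells as well. Myeloid-like cells held 70.2% (68.5 to 71.9%) of its fresh and 62.7% (61.3 to 64.0%) of its cryopreserved UMIs, at 1318 and 1383 CPM. In the other myeloid-like cluster, cluster 20 with TBXAS1 and ARG1, it was far lower, with 59.8 CPM in the cryopreserved library. Endothelial-like cells held 14.8% and 15.1% of the UMIs, at 263 CPM (238 to 289) fresh and 601 CPM (559 to 646) cryopreserved. These endothelial-like cells had 69.5 CPM fresh and 11.3 CPM cryopreserved of the 3 C1q genes together, and 301 and 2937 CPM of the fibrillar collagen genes COL1A1, COL1A2 and COL3A1, which mark fibroblasts. The part of RNA from other cells in this level was not tested. Dendritic-like cells held 9.86% and 16.9% at 167 and 435 CPM, and T- or NK-like cells 2.19% and 1.40% at 57.4 and 50.8 CPM. In fibroblast-like cells the level was 3.81 and 9.84 CPM, and at 1000 UMIs per cell CCL4 was seen in 0.265% and 0.610% of them. The thinned shares of endothelial-like cells, 12.2% and 15.1%, were well above this level.

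CCL5, which attracts T cells and monocytes and is commonly known as a product of cytotoxic T cells, had most of its UMIs outside the T- or NK-like cells. Dendritic-like cells held 55.2% (54.0 to 56.3%) of the fresh and 51.7% (50.7 to 52.7%) of the cryopreserved UMIs, at 2374 and 2828 CPM. Myeloid-like cells held 33.2% and 33.9%, at 1577 and 1587 CPM. T- or NK-like cells held 8.21% (7.58 to 8.87%) and 12.2% (11.6 to 12.8%), at 545 and 944 CPM. Unlike CCL8 and CCL4, CCL5 was high in both myeloid-like clusters, with 1630 and 1753 CPM in cluster 7 and 1125 and 695 CPM in cluster 20. Of the CCL5 UMIs in myeloid-like cells, 81.2% of the fresh and 92.4% of the cryopreserved ones were in cells with 0 UMIs of the T cell receptor complex. In dendritic-like cells the shares were 89.1% and 88.0%. Most cells had 0 such UMIs, namely 139 of 153 fresh and 250 of 275 cryopreserved myeloid-like cells. Of the dendritic-like cells, 98 of 108 and 168 of 184 had none. The part of T cell RNA in these CCL5 levels was not tested. Lymphatic-like cells had 200 and 127 CPM, of which 1 cell held 52.5% of the fresh and 1 cell 47.4% of the cryopreserved UMIs. Fibroblast-like cells had 1.94 and 2.49 CPM.

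Within the T- or NK-like cells, CCL5 and CCR7 lay in different clusters. Cluster 16, in which IL17F, IL23R, KLRB1 and KLRK1 were leading genes, had 1298 CPM (1193 to 1408) of CCL5 in the fresh and 2500 CPM (2365 to 2642) in the cryopreserved library. Cluster 15, led by BLK and CD3E, had 13.8 and 6.93 CPM, near the 22.9 and 18.5 CPM of endothelial-like cells. CCR7 had the opposite order, with 427 and 485 CPM in cluster 15 and 118 and 112 CPM in cluster 16. The remaining cluster, 23, had 8 and 13 cells and was like cluster 15, with 481 and 548 CPM of CCR7. Cell by cell, CCL5 was detected in 9.09% of the fresh T- or NK-like cells with a CCR7 UMI and in 26.5% of those without one, and in 3.05% and 18.7% of the cryopreserved ones. CCL4 lay with CCL5, as it was detected in 36.0% of fresh T- or NK-like cells with CCL5 and 2.5% of those without it, and in 29.6% and 3.96% of the cryopreserved ones. The counts behind the CCL4 shares were 9 and 8 cells with both genes.

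CCR7, the receptor of lymph node homing, was led by dendritic-like cells, followed by T- or NK-like cells. Dendritic-like cells held 71.5% (69.4 to 73.5%) of its fresh and 64.9% (62.9 to 67.0%) of its cryopreserved UMIs, at 825 CPM (781 to 870) and 710 CPM (672 to 748). T- or NK-like cells held 17.1% and 22.7%, at 305 and 351 CPM. Myeloid-like cells held 10.9% and 9.87%, at 139 and 92.4 CPM, but single cells weighed heavily there. Of the 206 fresh myeloid UMIs, 73 were in 1 cell, and 92 were in the 14 cells that also had a UMI of the T cell receptor complex. In the cryopreserved library only 5 of 207 were in such cells. Endothelial-like cells had 0 and 1 UMI, and lymphatic-like and mast-like cells had 0 in both libraries. At 1000 UMIs per cell, CCR7 was seen in 28.7% and 24.5% of dendritic-like and 22.8% and 23.2% of T- or NK-like cells, and in 1 of 1130 and 0 of 1476 fibroblast-like cells. Unthinned, the shares were 54.6% and 44.6% of dendritic-like cells and 53.1% and 51.6% of T- or NK-like cells. In epidermal stem-like cells 2 fresh and 43 cryopreserved UMIs were found, 13 of the latter in 1 cell.

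The dendritic-like cells were not uniform for these genes. They were divided into 4 sub-clusters after the members' levels had been seen, so the following is a description. The largest, with 154 cells and BACH2, EHF and FSCN1 leading, had 296 CPM of CD207. It held most CCL5, at 3295 CPM (3176 to 3417) fresh and 4168 CPM (4049 to 4288) cryopreserved, with CCR7 at 983 and 1026 CPM. FSCN1 encodes fascin, an actin-bundling protein of mature dendritic cells. A sub-cluster of 17 cells with C1QC, SPP1 and IL23A leading had 0 CPM of CD207 and the most CCR7, at 2221 CPM in 8 fresh and 1552 CPM in 9 cryopreserved cells, with CCR7 detected in 8 of 8 and 8 of 9. Its CCL5 was 892 and 2213 CPM. These 17 cells had more myeloid than dendritic genes among their leading genes (C1QA, C1QB, C1QC and CX3CR1), with 3448 CPM of C1QC. The dendritic markers FLT3 and EPCAM were the lowest of the 4 sub-clusters (47.8 and 8.69 CPM). Other dendritic markers were not: CD80 was 648 CPM and FSCN1 95.6 CPM, against 715 and 281 CPM in the largest sub-cluster. The 17 cells held 14.7% of all fresh and 7.73% of all cryopreserved CCR7 UMIs. Without them the dendritic-like share was 66.5% and 62.0% for CCR7 and 54.4% and 50.6% for CCL5. The sub-cluster of 97 cells had TGFBR3, FOS and DNAJB1 among its leading genes. It also had the most of the dendritic markers XCR1 and FLT3 (38.4 and 303 CPM) of the 4 sub-clusters, but the least CD80 (121 CPM). In 16.5% of its cells, also the most, the doublet score was among the highest 6%. Both CCL5 and CCR7 differed there between the libraries: CCL5 was 1502 CPM fresh and 309 CPM cryopreserved, and CCR7 332 and 31.6 CPM. A single fresh cell held 291 of the 788 CCL5 UMIs there and 1 held 60 of the 174 CCR7 UMIs. The remaining 24 cells had 7003 CPM of COL1A1, a fibroblast collagen, and the most CD207 of the 4 sub-clusters (609 CPM). Their high CCL4 (659 and 1511 CPM) came mostly from 1 cell in each library, with 71 of 74 and 129 of 178 UMIs. The part of transcripts from other cells in this sub-cluster was not tested.

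CCR7 and CCL5 were often in the same dendritic-like cells. CCL5 was detected in 84.7% of the fresh dendritic-like cells with a CCR7 UMI against 65.3% of those without one, and in 82.9% against 54.9% in the cryopreserved library. Cells with more UMIs show both genes more often, and these shares were not thinned. CCR7 was seen in 56.8% of fresh cells with CD207 and 53.1% without, and in 47.3% and 41.9% of the cryopreserved ones. CCL4 was seen less in dendritic-like cells with CCR7 (22.0% in both libraries) than in those without it (46.9% and 36.3%).

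CCL2, the main monocyte attractant, was a gene of stromal cells and of myeloid-like cells. Fibroblast-like cells held 60.3% (59.9 to 60.7%) of its fresh and 60.8% (60.5 to 61.0%) of its cryopreserved UMIs, at 2623 and 4938 CPM. SMC-like cells had the highest level, 6854 CPM (6738 to 6972) and 10903 CPM (10756 to 11051), and held 20.2% and 16.6% of the UMIs. Myeloid-like cells held 10.6% and 12.9% at 4621 and 7342 CPM. Cluster 8, the SMC-like cluster with RGS5, KCNJ8 and GJA4 among its leading genes, was the highest of all clusters at 10418 and 15180 CPM, and the other SMC-like cluster had 2425 and 3701 CPM. Among fibroblast-like clusters the level ranged from 602 and 1085 CPM in cluster 1 to 5504 and 10425 CPM in cluster 0, whose leading genes were MYOC, FCN2 and FGF10. Within the epidermis, cluster 9, with KRT15, SOX6 and CXCL14 leading, had 59.4 and 105 CPM, whereas cluster 10 had 1029 and 1901 CPM. Endothelial-like cells had 343 and 737 CPM, and dendritic-like cells had 17.7 and 109 CPM.

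For CCL2 the dendritic-like cells, which had little of it, served as the reference for free RNA. Since a class low in CCL2 was taken, higher shares in other classes follow in part from this choice and are not a test. At 1000 UMIs per cell CCL2 was seen in 0.926% (0.0234 to 5.05%) of fresh and 5.98% (3.02 to 10.4%) of cryopreserved dendritic-like cells, whose median depths were 14625 and 9412.5 UMIs. In SMC-like cells, with median depths of 7686 and 5026, the thinned shares were 81.9% and 89.5%, in myeloid-like cells 65.8% and 70%, and in fibroblast-like cells 49.3% and 63.3%. The unthinned shares were 24.1% and 28.3% of dendritic-like, 93.9% and 98.1% of SMC-like, 85.6% and 82.9% of myeloid-like and 74.9% and 84.5% of fibroblast-like cells. T- or NK-like cells, at 3.45% and 5.51% thinned, were near the dendritic-like cells, and whether they were a source of CCL2 was not tested.

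In myeloid-like cells CCL8 was found almost wholly inside the CCL2-bearing cells. Of 93 fresh cells with CCL8, 90 also had CCL2, and of 124 cryopreserved cells 122 did. Most cells without CCL8 had CCL2 too, 41 against 19 without it in the fresh and 106 against 45 in the cryopreserved library. The myeloid-like clusters were not separated in these counts. CCL8 was detected in 68.7% of fresh myeloid-like cells with CCL2 and 13.6% of those without, and in 53.5% and 4.26% of the cryopreserved ones. CCL4 was also detected more often with CCL8, in 59.1% against 25% of fresh and 41.9% against 27.2% of cryopreserved cells. These shares, too, were not thinned.

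**Figure D2:**
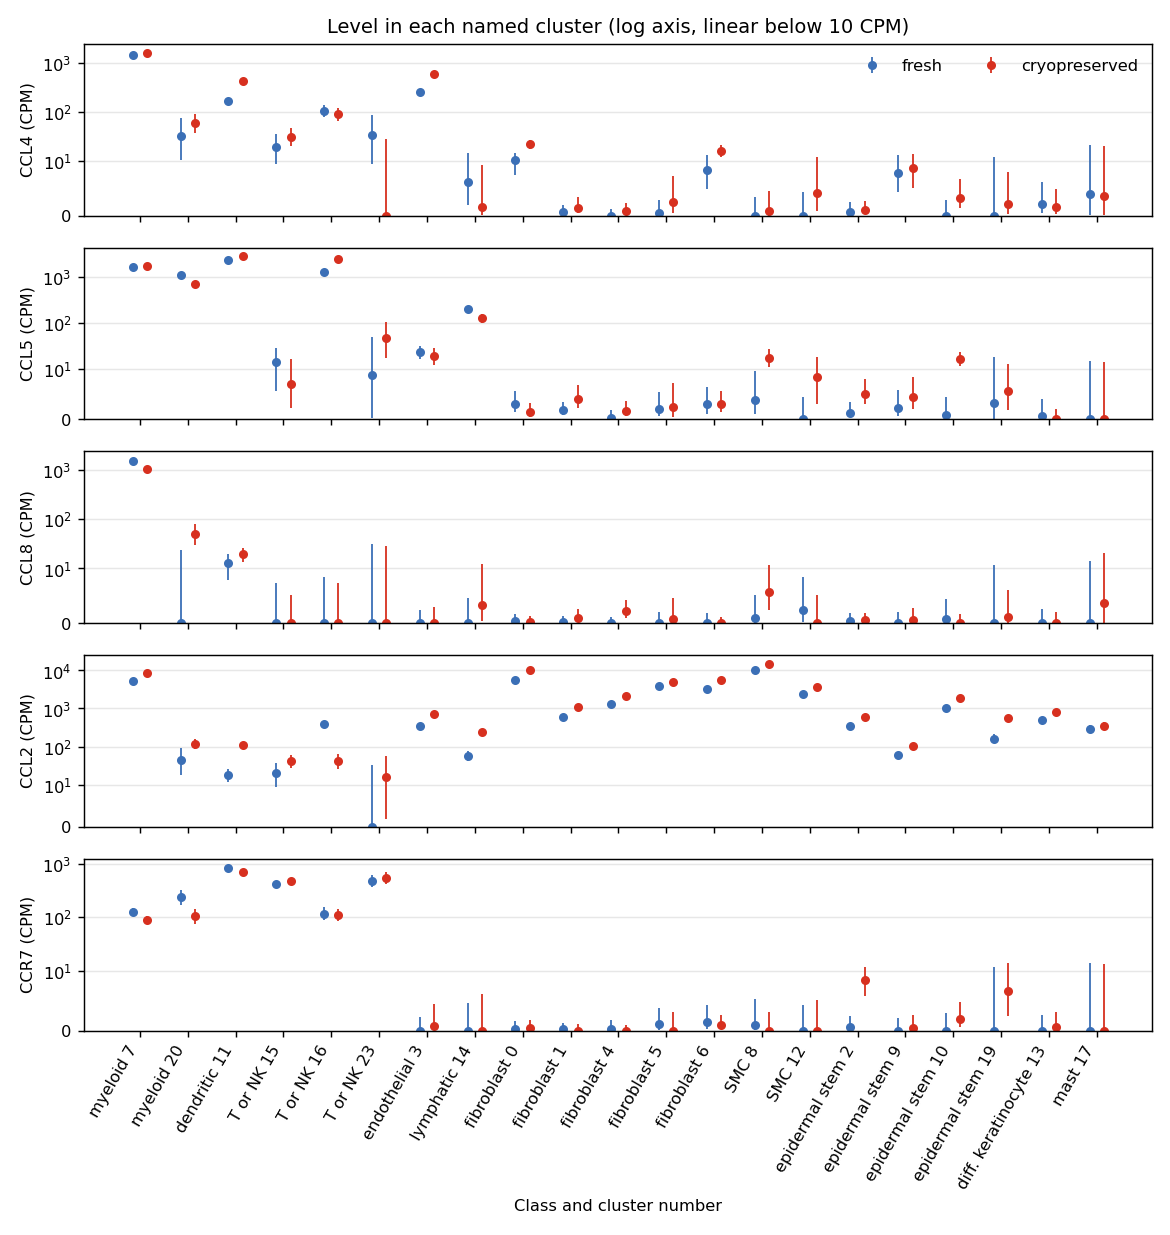
Level of each gene (vertical axes, CPM on a log axis that is linear below 10) in the 21 named clusters, ordered by class, for the fresh (blue) and cryopreserved (red) library, with exact Poisson 95% intervals. CCL8 was high in 1 myeloid-like cluster, CCL5 and CCR7 were high in different T- or NK-like clusters, and CCL2 was highest in an SMC-like cluster.

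Few cells held most of the UMIs of each gene other than CCL2. The 1% of cells with most CCL8 UMIs (28 fresh and 43 cryopreserved cells) held 82.6% (81.0 to 84.2%) of the fresh and 80.7% (78.9 to 82.4%) of the cryopreserved UMIs. For CCR7 these shares were 66.5% and 64.2%, for CCL4 66.1% and 71.6%, and for CCL5 49.9% (48.7 to 51.0%) and 55.9% (54.9 to 56.8%). For CCL2 they were 14.95% and 14.7%, close to the median over all genes with at least 200 UMIs, 14.2% and 15.5%. A share of at least 50% was reached by 3 of the 5 genes in the fresh library, against 2.74% of 9942 genes, and by 4 of the 5 in the cryopreserved library, against 3.43% of 10300 genes. CCL5 lay just under this value in the fresh and just over it in the cryopreserved library. The genes were chosen with earlier results of these data known, so these counts are not a test. By variability between cells, CCL4, CCL5, CCL8 and CCR7 ranked 13, 9, 28 and 14 among fresh genes. In the cryopreserved library their ranks were 6, 3, 12 and 24.

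**Figure D3:**
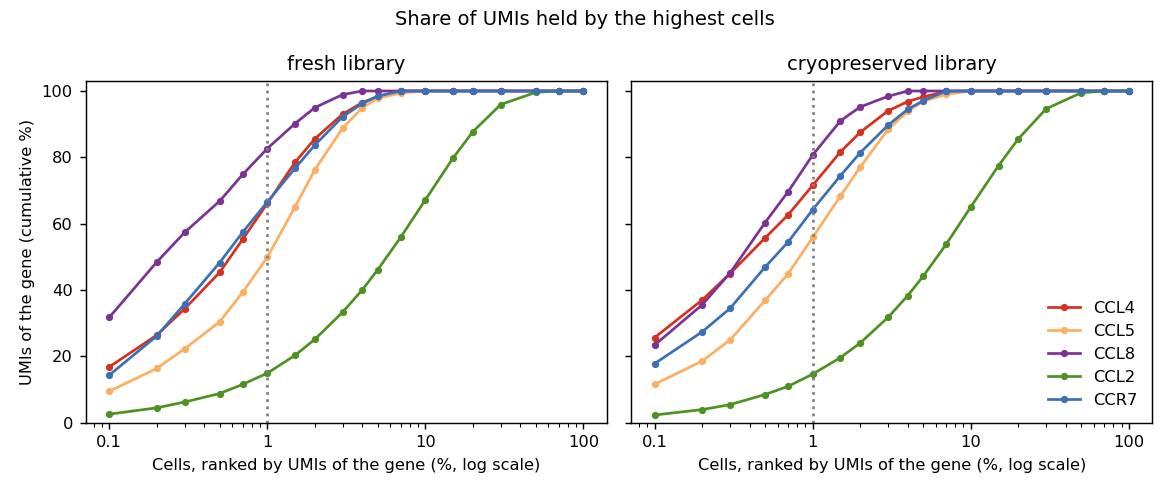
Cumulative share of the UMIs of each gene (vertical axis, %) held by the highest cells (horizontal axis, % of cells ranked by UMIs of that gene, log scale) in the fresh (left) and cryopreserved (right) library, with 1% of cells marked by the dotted line. At 1% of cells CCL8 had the highest share and CCL2 the lowest in both libraries.

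The number of cells behind these shares was small. For CCL8, 7 fresh and 16 cryopreserved cells held 50% of the UMIs, and the highest fresh cell alone held 290 of 2132 (13.6%), whereas the highest cryopreserved cell held 118 of 2061 (5.73%). For CCL4, 17 cells held 50% in each library, for CCR7 16 and 26, for CCL5 29 and 36, and for CCL2 160 and 261. The 28 top fresh cells of CCL8 were all myeloid-like, as were 42 of the 43 cryopreserved ones. Dendritic-like cells made up 24 of 28 and 34 of 43 of the top CCR7 cells and 16 of 28 and 23 of 43 of the top CCL5 cells. Myeloid-like cells made up 21 of 28 and 26 of 43 of the top CCL4 cells, and fibroblast-like cells 20 of 28 and 32 of 43 of the top CCL2 cells. The top CCL4 cells were not deeper than the library (medians 10237.5 and 6506 UMIs against 11017 and 7945). Those of CCL5 (19518.5 and 10079), CCR7 (19112.5 and 11744), CCL2 (15449 and 12484) and CCL8 (13094 and 10594) were deeper. Of the top cells, between 0 and 5 per gene and library had a doublet score among the highest 6%. The 5 were among the 43 cryopreserved top CCL5 cells, a larger share than 6%.

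The top cells of any 2 of the genes were mostly different cells. How many top cells unrelated genes would share was not computed, so low counts here do not show that 2 genes avoided each other. CCL5 and CCR7 shared 12 of 28 fresh and 15 of 43 cryopreserved top cells (42.9% and 34.9%), the most of any pair. CCL4 and CCL8 shared 8 in each library (28.6% and 18.6%), and CCL4 and CCL5 shared 3 and 5, although both had many UMIs in myeloid-like cells. CCL2 and CCR7 shared 0 in both.

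The ligands of CCR7 were highest outside the leukocyte classes. CCL21, which lymphatic vessels secrete, was highest in lymphatic-like cells at 455 and 1092 CPM, and CCL19 was found in SMC-like (208 and 320 CPM) and fibroblast-like cells (261 and 229 CPM). Of 12 further CC chemokine genes in the matrices, 6 had at least 200 UMIs, and only CCL14 was led by myeloid-like cells, at 1184 and 1371 CPM. CCL27 and CCL28, which attract T cells to epithelia, were highest in epidermal stem-like (2223 and 2957 CPM) and differentiated keratinocyte-like cells (167 and 161 CPM). CCL26, an eosinophil attractant, was highest in endothelial-like cells at 68.8 and 57.1 CPM. The remaining 6 (CCL1, CCL3L1, CCL11, CCL16, CCL17 and CCL22) had fewer than 200 UMIs.

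Of 12 further CC receptor and scavenger genes, 5 had at least 200 UMIs. CCR1, a receptor of CCL5, was highest in myeloid-like cells at 67.3 and 51.8 CPM, followed by dendritic-like cells at 34.7 and 19.3 CPM. Both classes also held much of the CCL5. The receptor CCR2 of CCL2 and CCL8 had fewer than 200 UMIs in both libraries together. The scavengers, which bind chemokines without signalling through G proteins, differed in site. ACKR1 was highest in endothelial-like cells (465 and 442 CPM), ACKR2 in lymphatic-like (68.0 and 100.2 CPM) and ACKR4, which removes CCL19 and CCL21, in fibroblast-like cells (104 and 69.2 CPM).

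Other gene lists were followed over the same classes. Among all genes with at least 200 UMIs, 8.11% were highest in myeloid-like, 3.79% in dendritic-like and 11.3% in T- or NK-like cells, taking both libraries together. Of 9 mature dendritic cell genes present, 7 had at least 200 UMIs and 4 of these were highest in dendritic-like cells, among them the costimulatory molecules CD80 (566 and 468 CPM) and CD40 (286 and 284 CPM), and IL4I1 (97.4 and 92.7 CPM). FSCN1, RELB and TRAF1 were highest in lymphatic-like or endothelial-like cells. Of 13 cytotoxic lymphocyte genes, 4 passed and 3 were highest in T- or NK-like cells, namely GNLY (659 and 738 CPM), KLRB1 and KLRK1, while NKG7 was highest in mast-like cells. KLRB1, KLRK1 and NKG7 were also markers used to name T- or NK-like clusters, and CD80 and FSCN1 were markers for dendritic-like ones. For these genes a lead in the class follows in part from the naming and is not a test, and the counts that include them are descriptions. The 3 helper and regulatory T cell genes that passed of 10, IL2RA and GATA3 among them, were all highest in T- or NK-like cells. Of the 10 NF-kB response genes, all passed, and 1 was led by myeloid-like, 2 by dendritic-like and 1 by T- or NK-like cells. Of these, NFKBIA, IL6 and ICAM1 were highest in endothelial-like and CXCL2 in SMC-like cells, TNFAIP3 in T- or NK-like and PTGS2 in mast-like cells. The 8 interferon response genes that passed of 11 were led by none of these leukocyte classes. Of them ISG15, MX1, IFIT1, CXCL10 and IFI6 were highest in endothelial-like cells.

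Genes with a pattern like that of each member were ranked by Pearson's r of log2(CPM + 1) over 40 points, which were 20 clusters with at least 20 cells in each library. The points share 2 libraries and their depth, and r is a description. CCL8 was most like VSIG4 (0.94), CD163 (0.90), GP91-PHOX (0.90), TIMD4 (0.90) and CD209 (0.89), among 11692 genes. CCR7 was most like SLAMF7 (0.94), GIMAP4 (0.94), CORO1A (0.92), CD48 (0.92) and IRF4 (0.92). The nearest genes to CCL4 were MX2 (0.90), SLA-DMB (0.90), SLA-DRB1 (0.87), SLA-DQB1 (0.85) and SYNJ1 (0.84), and those near CCL5 included GIMAP8 (0.84), CXCL8 (0.84), CIITA (0.82) and MYO1F (0.81). Those to CCL2 were PRICKLE2 (0.79), CEBPB (0.79), TRIM47 (0.79), CEBPD (0.78) and TULP3 (0.76). Among the members, CCL4 and CCL5 were closest (0.76), and CCL2 and CCR7 the farthest (-0.44), with -0.29 for CCL2 and CCL5.

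Against the fresh library, CCL2 and CCL4 were higher in the cryopreserved cells, CCL5 moderately higher, CCL8 slightly lower and CCR7 equal within counting error. After TMM scaling of the summed UMIs, the cryopreserved level over the fresh one was, as a log2 ratio, 0.82 (0.81 to 0.83) for CCL2, from 65109 and 127137 UMIs. It was 0.68 (0.61 to 0.75) for CCL4, from 2790 and 4946 UMIs, and 0.42 (0.38 to 0.47) for CCL5, from 7067 and 10499. For CCL8 it was -0.20 (-0.28 to -0.11), from 2132 and 2061 UMIs, and for CCR7 it was -0.00 (-0.09 to 0.09), from 1895 and 2097. None of the 5 reached 1 in size, which 1.07% of 11692 genes with at least 200 UMIs did. A ratio of at least 0.5 was found for 2 of the 5 (CCL2 and CCL4) and for 8.29% of all genes. The median of all genes was 0.03, and the median size, without sign, was 0.23. A ratio larger in size than that of CCL8 was found for 56.3% of genes, so its difference was an ordinary one. The same share was 19.7% for CCL5, 4.88% for CCL4, 2.54% for CCL2 and 99.9% for CCR7. Freezing and any other difference between the 2 libraries cannot be told apart.

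**Figure D4:**
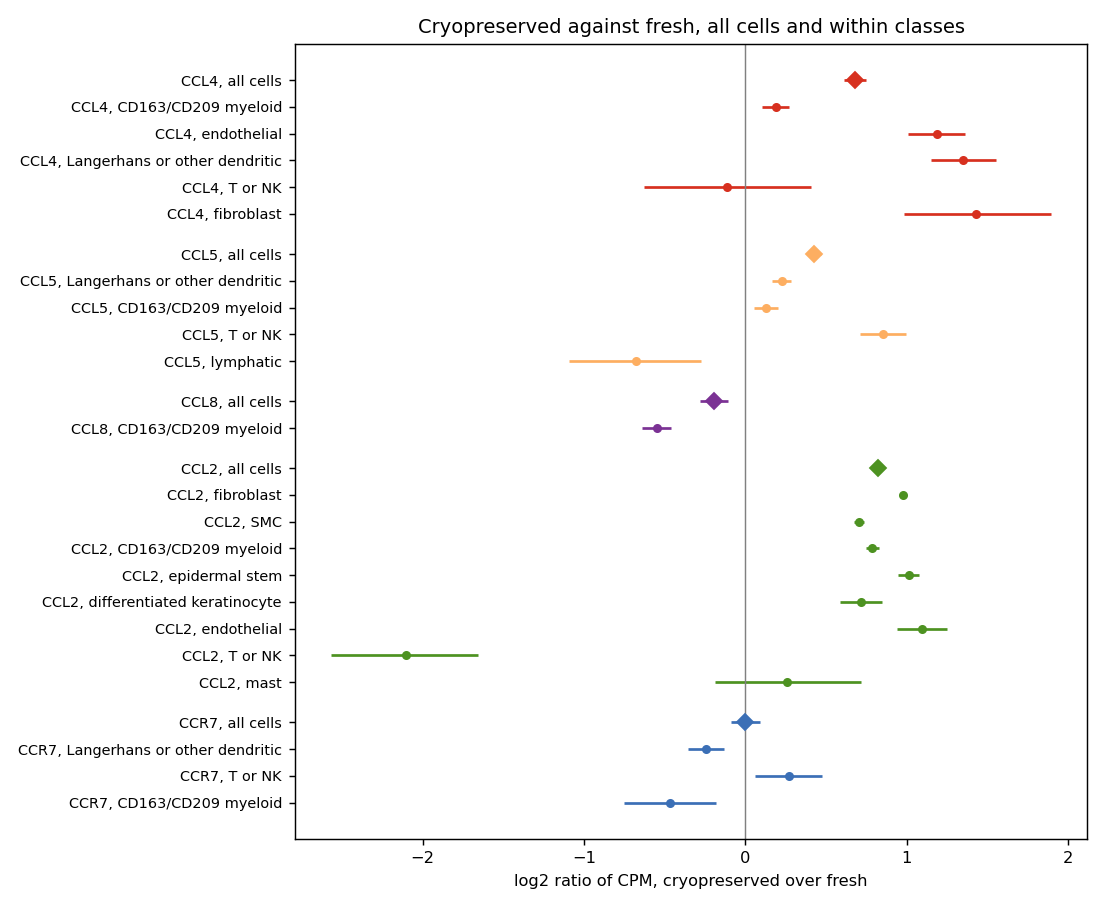
Log2 ratio of TMM-scaled CPM, cryopreserved over fresh (horizontal axis), over all cells (diamonds) and within each class with at least 50 UMIs of the gene in both libraries (circles), with exact 95% intervals for counting error. CCL2 lay between 0.70 and 1.09 in 6 classes, was 0.26 in mast-like cells, and in T- or NK-like cells was -2.10, where 1 fresh cell held most UMIs.

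The higher CCL2 was seen within the classes as well. It was 0.97 (0.96 to 0.99) in fibroblast-like, 0.70 (0.67 to 0.73) in SMC-like, 0.79 (0.74 to 0.83) in myeloid-like, 1.01 (0.95 to 1.08) in epidermal stem-like, 0.72 (0.58 to 0.85) in differentiated keratinocyte-like and 1.09 (0.94 to 1.25) in endothelial-like cells. Ratios of at least 0.5 were found for 9.26%, 5.64%, 14.1%, 6.64%, 5.27% and 5.93% of genes in these classes. In the endothelial-like cells the fibrillar collagen level moved with CCL2, from 301 to 2937 CPM, and the part of fibroblast RNA in their ratio was not tested. CCL2 was low in dendritic-like (17.7 and 109 CPM) and lymphatic-like cells (56.8 and 247 CPM). There the ratio was 2.60 (2.03 to 3.21) and 2.10 (1.61 to 2.61), from 29 and 46 fresh UMIs, and 5.88% and 7.46% of genes reached 0.5. Of the 209 cryopreserved dendritic-like UMIs, 166 were in the sub-cluster of 97 cells, 85 of them in 1 cell. The ratios of both classes were not computed without the highest cells. In mast-like cells the ratio was 0.26 (-0.19 to 0.72), and -0.16 (-0.69 to 0.36) without the highest cell of each library. In T- or NK-like cells it was -2.10 (-2.57 to -1.65), where 5.23% of genes were at -0.5 or less, but 163 of the 186 fresh UMIs were in 1 cell, and without the highest cell of each library it was 0.80 (0.06 to 1.58). With the class shares of the fresh library given to both, and CPM by total UMIs, the ratio over all cells was 0.83. By total UMIs alone it was 0.78.

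CCL4 and CCL8 showed that a ratio over all cells need not be that of the leading class. In myeloid-like cells, which held most CCL4, the ratio was 0.19 (0.10 to 0.27), whereas in endothelial-like cells it was 1.18 (1.01 to 1.36) and in dendritic-like cells 1.35 (1.15 to 1.55). Among all genes, 1.18% in endothelial-like and 2.29% in dendritic-like cells differed by 1 or more in size. The fibrillar collagen level of the endothelial-like cells was higher in the cryopreserved library too (301 and 2937 CPM), while that of the dendritic-like cells was lower (2048 and 710 CPM), and their part in these ratios was not tested. Of the cryopreserved endothelial UMIs of CCL4, 174 of 748 were in 1 cell, and without the highest cells the ratio was 0.96 (0.77 to 1.15). In fibroblast-like cells, with 57 and 154 UMIs of CCL4, it was 1.43 (0.98 to 1.89). For CCL8 the ratio in myeloid-like cells was -0.55 (-0.64 to -0.46), lower than over all cells. Ratios of -0.5 or less were found for 8.13% of genes in these cells. With the class shares of the fresh library in both, and CPM by total UMIs, CCL8 was -0.62 over all cells, against -0.23 by total UMIs alone. Without the highest cell in each library, CCL8 was -0.42 (-0.52 to -0.33) in myeloid-like cells and -0.07 (-0.16 to 0.02) over all cells.

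CCL5 differed less in its leading classes than in lymphocytes. The ratio was 0.22 (0.16 to 0.28) in dendritic-like and 0.13 (0.05 to 0.20) in myeloid-like cells. By total UMIs the myeloid-like levels were 1577 and 1587 CPM, so nearly all of the 0.13 came from the TMM factor of that class. In T- or NK-like cells the ratio was 0.85 (0.71 to 0.997), where 10.8% of genes had a ratio of at least 0.5, and 0.90 (0.74 to 1.05) without the highest cell of each library. In lymphatic-like cells, with 162 and 76 UMIs of CCL5, it was -0.68 (-1.09 to -0.28), and -0.53 (-1.12 to 0.036) without the highest cells. Thinned to 1000 UMIs, CCL5 was seen in 51.9% and 51.1% of dendritic-like, 34.9% and 32.2% of myeloid-like and 11.03% and 7.87% of T- or NK-like cells, so the share of T- or NK-like cells with CCL5 was not higher in the cryopreserved library. Unthinned, these shares were 75.9% and 67.4%, 49.0% and 55.3%, and 17.2% and 10.6%. T- or NK-like cells with CCL5 had a median of 3 CCL5 UMIs when fresh and 10 when cryopreserved. They were only 25 fresh and 27 cryopreserved cells, so the ratio of this class rests on few cells, which its counting interval does not cover.

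CCR7 differed little over all cells, and more in some groups of cells. The ratio was -0.24 (-0.35 to -0.14) in dendritic-like cells, whose median over all genes was -0.10, and 0.27 (0.06 to 0.48) in T- or NK-like cells. In myeloid-like cells it was -0.47 (-0.75 to -0.18), and without the highest cell of each library -0.27 (-0.62 to 0.07). The median size of the ratio over all genes, without sign, was 0.26 in dendritic-like, 0.24 in T- or NK-like and 0.27 in myeloid-like cells. The CCR7 ratios of the first 2 of these classes were near it. In epidermal stem-like cells the ratio of CCR7 was 3.94 (2.002 to 7.03), from only 2 fresh and 43 cryopreserved UMIs. In the dendritic-like sub-cluster of 97 cells the level was 332 CPM fresh and 31.6 CPM cryopreserved.

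Barcodes outside the study's maxima had less of most of these genes. The 1604 excluded fresh barcodes held 39.4% of all UMIs of the library but 5.96% of the CCL8, 11.4% of the CCR7, 19.9% of the CCL4, 19.6% of the CCL5 and 23.7% of the CCL2 UMIs. The 637 excluded cryopreserved barcodes held 13.1% of all UMIs, 11.96% of CCL8, 2.78% of CCR7, 7.67% of CCL4, 7.91% of CCL5 and 7.57% of CCL2 UMIs. With all barcodes kept, the ratio of CCL8 over all cells changed sign, to 0.39.

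Reads of near-identical genes cannot be told apart. Among RefSeq transcripts of the members and of other CC chemokine and receptor genes, the longest identical stretch was 42 bases, between CCL8 and CCL11, and CCL11 had fewer than 200 UMIs. The RefSeq models of CCL4 (299 bases) and CCL8 (347 bases) are short, so this comparison covers little beyond the coding part, and reads of the 3′ ends were not compared.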

How the data were processed

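Per the labels and the study's methods, the authors made the deposited UMI count matrices with Cell Ranger 4.0.0 and STAR 2.5.1b on Sscrofa11.1 with an Ensembl annotation. The counts are whole numbers of UMIs per gene and barcode. Cells above 4500 genes, 30000 UMIs or 10% of UMIs on 13 mitochondrial protein-coding genes were left out. Seurat 5.3.0 (R 4.3.3) integrated the libraries on 2000 variable genes without CC chemokine and CC receptor genes and clustered 30 dimensions at resolution 0.8. A cluster took the class with the largest share of its markers in at least 10% of its cells and at least 2-fold raised, with a minimum of 3, a rule set after a first output was seen. Doublets had been reduced by scatter gates of the study, and Scrublet called 3 fresh and 35 cryopreserved cells, which were kept. UMIs were summed per library and class, and log2 ratios used TMM factors from edgeR 4.0.16 (a step tested on simulated data), with exact Poisson, binomial and conditional intervals from scipy 1.17.1. DESeq2 1.42.0 gave alternative size factors. Named genes are the members, the 5 genes most like each, and up to 6 genes with at least 200 UMIs per list. CCR2, the further CC chemokines under 200 UMIs and the leading genes and markers of clusters were named outside that rule, after their values were seen. The members and lists were chosen with earlier results of these data known. Motifs and positions came from RefSeq. Some genes and a sequence that the rules would name are not reported here.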

Additional observations from a re-analysis of the deposited data

How the results depend on the processing

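No paired analysis was possible because each condition has 1 library and the labels carry no replicate numbers. Over all cells, DESeq2 size factors changed no log2 ratio of a member beyond its counting interval, and scaling by total UMIs moved only CCL2, to 0.78. Within classes these settings were not run. By total UMIs the myeloid-like levels differed less than after TMM for CCL4 (1318 and 1383 CPM) and CCL5 (1577 and 1587 CPM). For CCL8 they differed more (1415 and 891 CPM). The 50 UMI minimum gave 409 genes with a ratio of at least 1 in size in place of 125. With all deposited barcodes the ratio of CCL8 turned from -0.20 to 0.39, and the others became 0.96 (CCL4), 0.72 (CCL5), 1.03 (CCL2) and 0.35 (CCR7). Without the mitochondrial limit they were 0.75 (CCL4), 0.50 (CCL5) and 0.87 (CCL2). Without the highest cell of each library CCL8 was -0.069, and within T- or NK-like cells CCL2 turned from -2.10 to 0.80. Both this setting within classes and the next were chosen after seeing the data. With the class shares of the fresh library in both, the ratios were 0.50 (CCL4), 0.22 (CCL5), -0.62 (CCL8), 0.83 (CCL2) and -0.14 (CCR7). These used CPM by total UMIs in place of TMM. By total UMIs alone the ratios were 0.64 (CCL4), 0.39 (CCL5), -0.23 (CCL8), 0.78 (CCL2) and -0.04 (CCR7).

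At resolutions 0.4 and 1.2 the shares of CCL4 and CCL8 in myeloid-like, CCL5 and CCR7 in dendritic-like and CCL2 in SMC-like cells stayed within counting error, but the fibroblast-like share of CCL2 was 46.6% and 43.9% at resolution 1.2 (fresh, cryopreserved). That share was 59.7% and 60.4% with libraries merged and 59.3% and 60.1% without the highest Scrublet scores. Without the dendritic-like sub-cluster with C1q genes, a setting chosen after seeing the data, the dendritic-like shares were 66.5% and 62.0% for CCR7 and 54.4% and 50.6% for CCL5. Libraries merged without integration gave dendritic-like shares of 48.5% and 45.1% for CCL5 and 55.2% and 55.2% for CCR7 (fresh, cryopreserved) and a cryopreserved myeloid-like share of 98.1% for CCL8, and keeping the CC genes among the features gave 53.5% for fresh CCL5. Without the 6% of cells with the highest Scrublet scores the shares were 59.5% (cryopreserved CCL4, myeloid-like), 56.0% (cryopreserved CCL5) and 67.0% (cryopreserved CCR7, dendritic-like), and 21.3% and 17.2% (CCL2, SMC-like). In the top 1% of cells the same setting gave 48.2% and 57.0% for CCL5, 15.6% for fresh CCL2, 70.3% for cryopreserved CCL4 and 78.9% for cryopreserved CCL8. All barcodes gave top 1% shares of 73.6% (CCL4), 62.5% (CCL5), 89.2% (CCL8), 17.2% (CCL2) and 74.3% (CCR7) in the fresh library, and 57.0% (CCL5), 15.3% (CCL2) and 66.5% (CCR7) in the cryopreserved one, so fresh CCL5 passed 50%.

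Thinned to 2000 UMIs, the shares of leading cells with a UMI were 63.0% (fresh CCL5), 34.2% (cryopreserved CCL8), 89.1% and 95.2% (CCL2) and 42.6% and 33.3% (CCR7). Not thinned, they were 45.8% and 33.8% (CCL4), 75.9% and 67.4% (CCL5), 60.8% and 45.1% (CCL8), 93.9% and 98.1% (CCL2) and 54.6% and 44.6% (CCR7), so these shares depend on depth. With Spearman's rho, 1 of the 5 most similar genes was shared for CCL4, 0 for CCL5, 0 for CCL8 and 2 for CCR7, and at resolution 1.2 CCL5 shared 3. The cause of these changes was not tested. Outside the leukocytes most classes had 0 to 4 UMIs of CCL8 and of CCR7, so ratios there rest on few counts. These classes were not all shallow, as fibroblast-like cells carried 14968849 fresh and 15643702 cryopreserved UMIs of all genes, against 1486578 and 2240881 in myeloid-like cells.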
